A study of Danio rerio with 11 samples.

Results

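The genes described here are 64 of the 14473 genes in the deposited tables. They encode ligands, receptors, inhibitors and transducers of the Bmp and Tgf-beta pathways and a set of classical target genes. They were chosen by symbol, from the Bmp, Gdf, Smad, Id, Tgf-beta, activin receptor, noggin and inhibin families. The genes chd, bambia, vent, vox, ved and tll1 were added by name. The rule uses names and no measured value, but genes and lists were chosen with earlier results of these data known. The gene szl, also in the rule, was not analysed here. RNA was sequenced from single whole zebrafish embryos raised at 29 °C to about 25 hours after fertilisation (hpf). There were 6 mutant embryos (replicates 1, 3, 4, 5, 6 and 7) and 5 sibling embryos (replicates 2, 3, 4, 7 and 8). The mutants carry the label rfx4 mutant, and the series design gives the cross as an incross of rfx4uw8013/+ fish. The growth protocol instead names parents heterozygous for zic2, and this discrepancy could not be settled. Mutants were recognised by their appearance, so a sibling could be wild type or heterozygous, and no label gives the genotype of a single sibling.

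Bmp and Tgf-beta ligands are secreted dimers that bind paired type I and type II receptor kinases. The type I kinase phosphorylates receptor Smads. These are Smad1, Smad5 and Smad9 on the Bmp branch, and Smad2 and Smad3 on the Tgf-beta, activin and Nodal branch, and once phosphorylated they act in the nucleus on targets such as the Id genes. In the vertebrate neural tube, Bmp and Gdf ligands from the roof plate and the overlying epidermis pattern dorsal cell types, and chordin and noggin bind Bmps outside the cell and block them. The series title concerns the midline of the neural tube, dorsal as well as ventral, and the comparison asks whether transcripts of this pathway differ in embryos with the mutant appearance. Phosphorylation of Smads was not measured.

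Total counts ran from 16238368 to 21104811 per embryo. In counts scaled to the TMM library size (CPM), rfx4 averaged 41.9 ± 8.68 over the 6 mutants and 60.4 ± 9.84 over the 5 siblings (SD), which edgeR fitted as −0.53 ± 0.14 on the log2 scale (SE, edgeR adjusted p = 0.475). Mutants 6 and 7, at 54.1 and 51.1 CPM, lay within the sibling range. Of 68 listed markers of tissues and of dividing cells, in 12 lists, 63 were in the table and 0 of these had a count of 0 in any embryo. Summed marker CPM of the proliferation list, over its 7 measured genes, did not overlap between the groups, at 4119 CPM in mutant 6, 4606 to 5359 CPM in the other mutants and 5389 to 5707 CPM in the siblings. For the midline lists, the overlap came from mutant 6 alone, and the other 5 mutants lay below every sibling. The floor plate sum was 206 CPM in mutant 6, 117 to 156 CPM in the other mutants and 181 to 206 CPM in the siblings. The roof plate sum was 186 CPM in mutant 6, 117 to 143 CPM in the other mutants and 146 to 159 CPM in the siblings. Mutant 6 also stood below all other embryos for blood and endothelium, at 378 CPM in mutant 6, 719 to 1270 CPM in the other mutants and 647 to 1062 CPM in the siblings. By smaller margins, it was lowest for neural progenitors, at 863 CPM, against 870 to 1095 CPM in the other mutants and 956 to 1214 CPM in the siblings. For neurons it was lowest too, at 731 CPM, against 755 to 951 CPM in the other mutants and 778 to 951 CPM in the siblings. The groups overlapped for every list but proliferation. The part of these marker differences in the values below was not tested.

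Transcript levels of the pathway were close in the 2 groups. A low-count filter left 58 of the 64 genes among 12301 tested genes. The edgeR quasi-likelihood test with Benjamini-Hochberg adjustment over all tested genes called 0 of the 58 at 0.05, and 0% of all tested genes. The smallest adjusted p among the 58 was 0.593, for inhbb. An unadjusted p under 0.05 was found for 4 of the 58 genes (6.90%), which were inhbb, bmpr1ab, smad1 and inhbaa, against 6.85% of all tested genes. All 4 were higher in the mutants, as were 3.79% of all tested genes at that threshold, and 0 of the 58 were lower, against 3.06%. DESeq2 called 0 of the 58, and 43 of the 13954 genes given to it. With DESeq2, 4 of the 58 had an unadjusted p under 0.05, against 6.44% of all genes it tested. These were inhbb, bmpr1ab, smad1 and vent, so inhbaa was not among them. The CPM of the groups did not overlap for 1 of the 58 genes (1.72%), inhbb, which was higher in the mutants. Over all tested genes 0.943% did not overlap, and 0.455% did not overlap with the mutants higher. In RNA from whole embryos, fewer cells of a type and less RNA per cell cannot be told apart.

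Confidence intervals bounded the size of the differences. The 95% interval of the fold change, mutant over sibling, lay within 1.5-fold in either direction for 50 of the 58 genes (86.2%, against 78.3% of all tested genes). It lay within 2-fold for 56 of the 58, against 11654 of all 12301 tested genes. The 8 wider intervals belonged to bmp8a, gdf10b, gdf6b, inhbaa, tll1, nog3, bmp1b and vent, and those of gdf10b and vent passed 2-fold. These intervals are not adjusted for the number of genes.

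Most fitted values were slightly positive. Of the 58 genes, 46 (79.3%) had a log2 fold change above 0, against 50.2% of all tested genes. The median log2 fold change was 0.074 over the 58 genes and 0.00089 over all tested genes. By family it was 0.098 for 13 Bmp and Gdf ligands, 0.14 for 5 Tgf-beta and activin ligands, 0.087 for 15 receptors and 0.0047 for 8 Smads. It was 0.11 for 7 antagonists and proteases, 0.035 for 5 Id genes and 0.11 for vent, vox and ved. As a summary per embryo, the median over the 58 genes of log2 CPM relative to the mean of all embryos was computed. It ran from −0.031 in mutant 1 to 0.076 in mutant 6, and from −0.083 in sibling 7 to −0.014 in sibling 8. Mutant 1 lay among the siblings and the other 5 mutants lay above them all. With scaling by total counts, 49 of the 58 genes were above 0, against 59.0% of all tested genes.

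**Figure D1:**
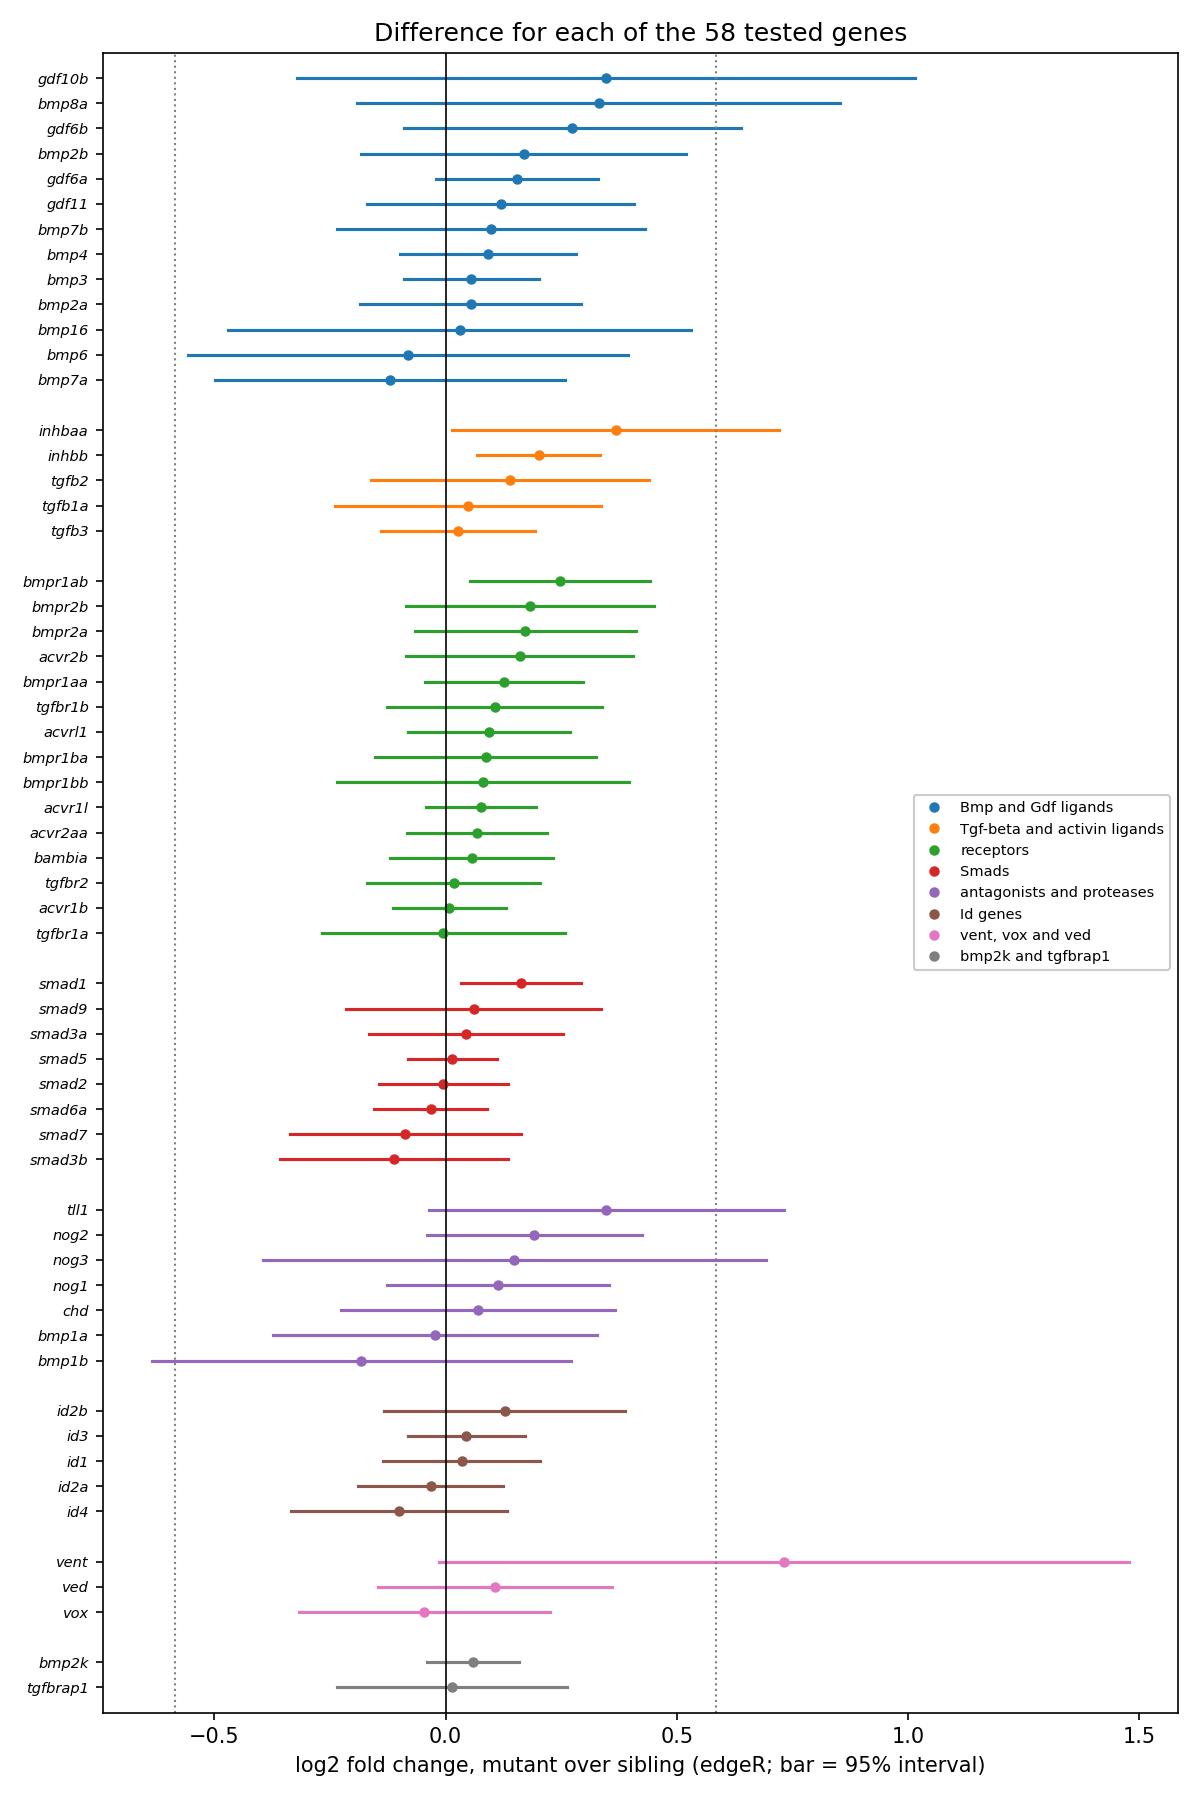
Log2 fold change, mutant over sibling, of each of the 58 tested genes by edgeR, with its 95% confidence interval as a bar, grouped and coloured by family; the dotted lines mark 1.5-fold in either direction. Intervals of 50 genes stay between the dotted lines, and those of inhbb, bmpr1ab, smad1 and inhbaa lie to the right of 0.

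Among the Bmp and Gdf ligands, bmp4 had the highest level per transcript length. It encodes a Bmp of the dorsal eye, the tail and other tissues, and stood at 19.4 ± 2.62 TPM in the mutants, against 17.9 ± 1.11 TPM in the siblings, where TPM is a level corrected for transcript length and all errors on levels are SD over 6 mutants and 5 siblings. The gene gdf6a encodes a Gdf of the dorsal retina, at 14.9 ± 1.22 TPM in the mutants, against 13.1 ± 1.56 TPM in the siblings. The gene bmp3, for an atypical Bmp that can antagonise others in mammals, was at 14.8 ± 1 TPM in the mutants, against 13.9 ± 0.608 TPM in the siblings. For bmp2b, the ligand of early ventral patterning in zebrafish, the level was 12.1 ± 3.46 TPM in the mutants, against 10.5 ± 1.5 TPM in the siblings, and for its paralog bmp2a it was 6.08 ± 0.586 TPM in the mutants, against 5.71 ± 0.489 TPM in the siblings. The other tested ligands were bmp6, bmp7b, gdf11, gdf6b, bmp16, bmp7a, gdf10b and bmp8a, with group means from 0.986 to 9.91 TPM.

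Of these ligands, 0 had an unadjusted p under 0.05, against 6.85% of all tested genes, and gdf6a and gdf6b had the lowest p. For gdf6a, values ran from 23.8 to 28 CPM in the mutants, with a median of 26.6 CPM, and siblings 2, 3, 4, 7 and 8 were at 21.6, 25.4, 21.1, 21.9 and 27 CPM. Siblings 3 and 8 lay among the mutants and the other 3 siblings below them all. Its log2 fold change was 0.15 ± 0.081 (SE, edgeR adjusted p = 0.752), with a fold interval of 0.986 to 1.26. For gdf6b, values ran from 4.19 to 7.65 CPM in the mutants, with a median of 5.1 CPM, and siblings 2, 3, 4, 7 and 8 were at 4.24, 4.34, 5.55, 4.28 and 4.76 CPM. Mutants 6 and 7, at 6.99 and 7.65 CPM, stood above every sibling, and the other 4 mutants lay between 4.19 and 5.25 CPM. Its log2 fold change was 0.27 ± 0.17 (SE, edgeR adjusted p = 0.796).

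For bmp4, values ran from 34.4 to 48.1 CPM in the mutants, with a median of 36.5 CPM, and siblings 2, 3, 4, 7 and 8 were at 33.6, 37.4, 38.6, 34.2 and 36.4 CPM. Mutant 6 was the highest embryo and mutant 4, at 40.03 CPM, the next, and the other mutants overlapped the siblings. The fold change was 1.07, with an interval of 0.935 to 1.22, and the log2 fold change was 0.092 ± 0.088 (SE) over all embryos and 0.018 without mutant 6. For bmp2b, mutant 6 was at 20.6 CPM, the other mutants at 10.4 to 14 CPM and the siblings at 10.7 to 14.8 CPM. Its log2 fold change was 0.17 ± 0.16 (SE) with mutant 6 and 0.012 without it. In the annotation used for names, the span of fermt1, introns included, overlaps that of bmp2b. The library kit does not mark the strand. Whether exons of such genes overlap, so that their reads could be confused, was not examined. Fitted values below 0 belonged to bmp6, at −0.081 ± 0.22, and bmp7a, at −0.12 ± 0.17 (SE). The CPM of bmp6 had a coefficient of variation of 29.6% in the mutants and 24.3% in the siblings.

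**Figure D2:**
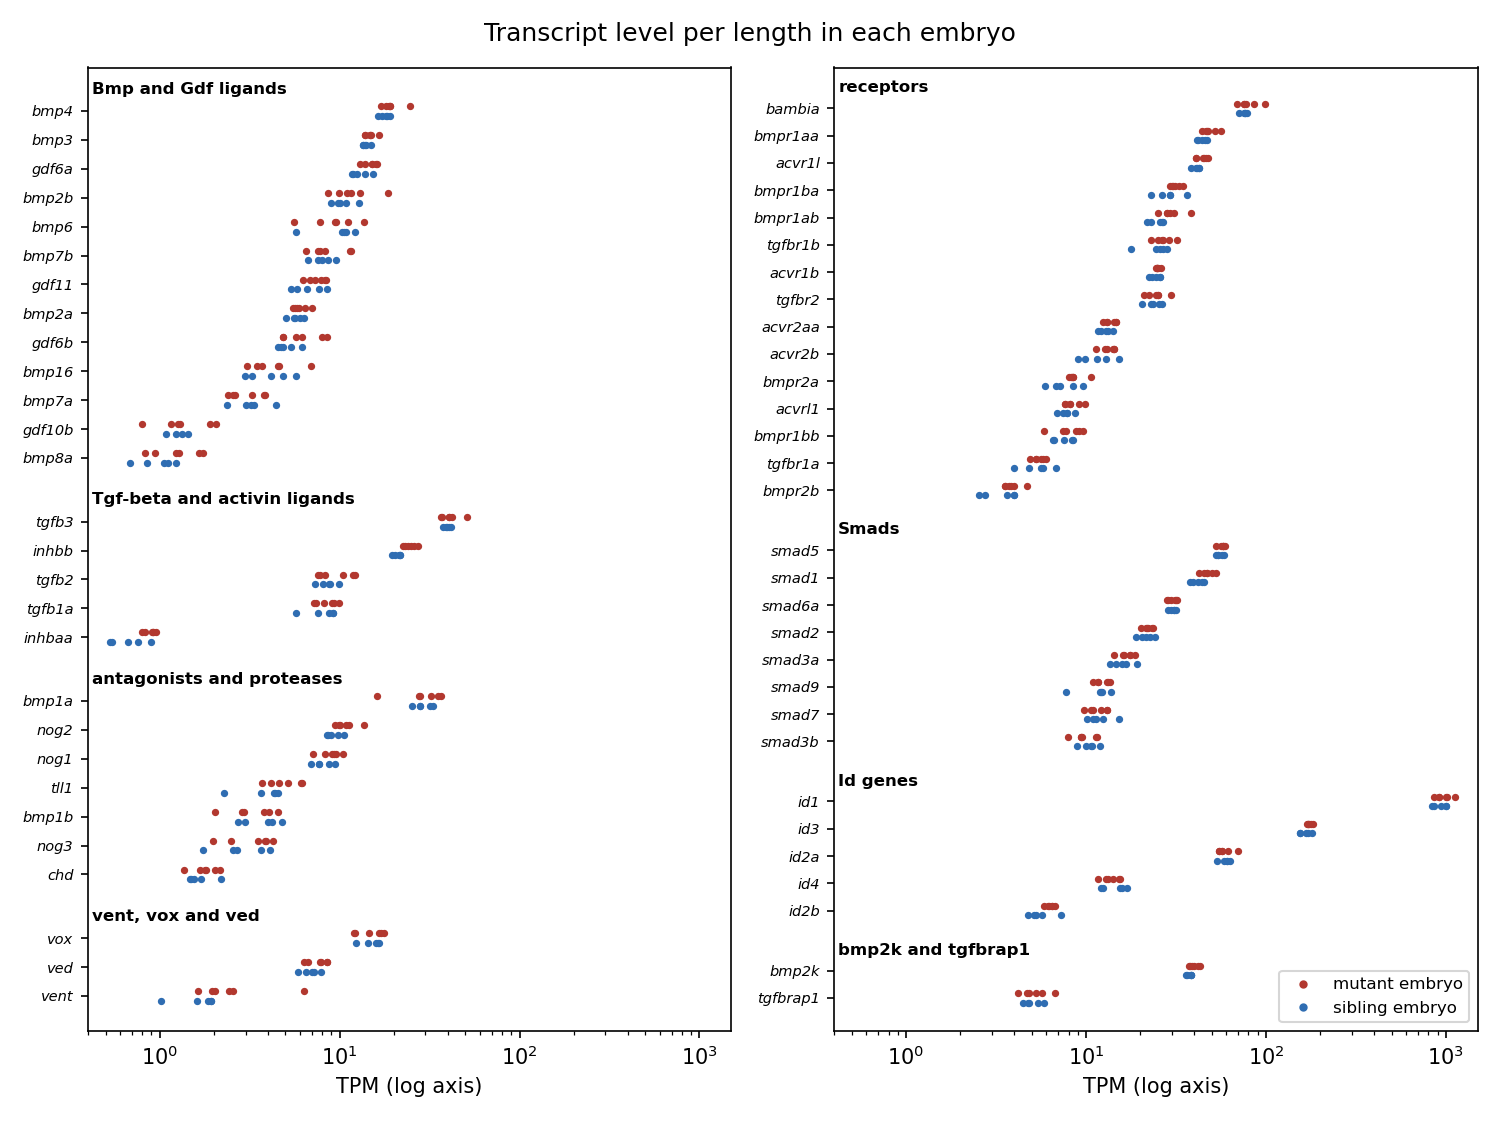
TPM of each tested gene in each embryo, on a log axis, by family, with mutant embryos in red in the upper row of each gene and sibling embryos in blue in the lower row. Levels are lowest for inhbaa, bmp8a and gdf10b and highest for id1, at a mean of 972 TPM in the mutants and 929 TPM in the siblings, and the groups do not overlap for inhbb.

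The lowest p of the pathway belonged to an activin gene. The gene inhbb encodes the beta B subunit of activin and inhibin, of which activin is a ligand of the Smad2 and Smad3 branch. Transcripts of inhbb ran from 45.2 to 54.3 CPM in the mutants, with a median of 48.9 CPM, and siblings 2, 3, 4, 7 and 8 were at 43.4, 45.1, 40.3, 43.7 and 43.6 CPM. Every mutant lay above every sibling, but narrowly, since mutant 6 was at 45.20 CPM and sibling 3 at 45.10 CPM. In TPM the lowest mutant was at 22.6 and the highest sibling at 21.8. The log2 fold change was 0.20 ± 0.061 (SE, edgeR adjusted p = 0.593), a 1.15-fold difference with an interval of 1.05 to 1.26. Leaving out each embryo gave log2 fold changes of 0.18 to 0.23.

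The gene inhbaa, for a beta A subunit, was among the lowest of the tested genes. Values ran from 1.78 to 2.24 CPM in the mutants, with a median of 2.09 CPM, and siblings 2, 3, 4, 7 and 8 were at 1.5, 1.28, 1.77, 1.28 and 2.04 CPM. Sibling 8 fell inside the mutant range, sibling 4 just under it, and the other 3 siblings lay lower. The fitted log2 difference of 0.37 ± 0.16 (SE, edgeR adjusted p = 0.721) rested on 23 to 39 counts per embryo. Its unadjusted p was no longer under 0.05 in 7 of the 11 fits that left out 1 embryo, those without mutant 4, 5, 6 or 7 or without sibling 2, 3 or 7. The gene sugct overlaps inhbaa in the annotation.

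Of the Tgf-beta ligands, tgfb3 was the most abundant, at 41.2 ± 5.29 TPM in the mutants, against 39.6 ± 1.52 TPM in the siblings. Transcripts of tgfb3 ran from 48.3 to 67.4 CPM in the mutants, with a median of 53.4 CPM, and siblings 2, 3, 4, 7 and 8 were at 54.5, 55.2, 55, 53 and 51.8 CPM. Mutant 6 stood above all other embryos, and the other mutants, at 48.3 to 55.1 CPM, overlapped the siblings. The fold change was 1.02, with an interval of 0.908 to 1.14, and its log2 value was −0.041 without mutant 6. For tgfb2 and tgfb1a the log2 fold changes were 0.14 ± 0.14 and 0.049 ± 0.13 (SE).

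All 15 receptor genes passed the low-count filter. Of these, 14 (93.3%) had fitted values above 0, against 50.2% of all tested genes. Every fold interval lay within 1.5-fold, as for 78.3% of all tested genes. The most abundant per length was bambia, which encodes a decoy receptor without a kinase domain, at 80.4 ± 10.8 TPM in the mutants, against 75.6 ± 2.91 TPM in the siblings. Values ran from 71.1 to 99.7 CPM in the mutants, with a median of 78.4 CPM, and siblings 2, 3, 4, 7 and 8 were at 75.7, 74.9, 81.6, 82.1 and 77.2 CPM. Mutant 6 was the highest embryo and mutant 7 the lowest, so the siblings lay inside the mutant range. Type I receptors of the Bmp branch followed in level. For bmpr1aa it was 49.1 ± 4.55 TPM in the mutants, against 44.1 ± 2.45 TPM in the siblings, and for acvr1l, the Alk8 receptor gene of zebrafish, it was 44.4 ± 2.84 TPM in the mutants, against 41.2 ± 1.73 TPM in the siblings. Among type II receptors, tgfbr2 was highest, at 24.7 ± 2.99 TPM in the mutants, against 23.8 ± 2.28 TPM in the siblings. The type II genes acvr2aa and acvr2b had group means of 11.7 to 13.7 TPM, and bmpr2a and bmpr2b had 3.38 to 8.73 TPM. The type I gene tgfbr1b was at 27.05 ± 3.12 TPM in the mutants, against 24.6 ± 4.09 TPM in the siblings. For tgfbr1a the level was 5.48 ± 0.397 TPM in the mutants, against 5.4 ± 1.05 TPM in the siblings. The receptor gene acvrl1, of endothelium, was at 8.44 ± 0.884 TPM in the mutants, against 7.74 ± 0.662 TPM in the siblings.

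Among receptors, bmpr1ab, a paralog of bmpr1aa, was the gene with an unadjusted p under 0.05. Transcripts of bmpr1ab ran from 58 to 83.3 CPM in the mutants, with a median of 62.7 CPM, and siblings 2, 3, 4, 7 and 8 were at 58, 49.9, 58.6, 53 and 56.4 CPM. Mutant 4 lay within the sibling range, mutant 6 stood far above the rest, and the other 4 mutants lay just above the highest sibling. The log2 fold change was 0.25 ± 0.090 (SE, edgeR adjusted p = 0.662), or 1.19-fold with an interval of 1.04 to 1.36, and it was 0.17 without mutant 6. For bmpr1aa, values ran from 121 to 162 CPM in the mutants, with a median of 130.0 CPM, and siblings 2, 3, 4, 7 and 8 were at 127, 129, 118, 125 and 131 CPM. Mutants 4 and 7 stood above all other embryos, and the remaining mutants overlapped the siblings, with a fitted log2 difference of 0.13 ± 0.079 (SE, edgeR adjusted p = 0.799). The gene mmrn2a overlaps bmpr1aa in the annotation. The type II genes bmpr2a, bmpr2b and acvr2b had log2 fold changes of 0.17 ± 0.11, 0.18 ± 0.12 and 0.16 ± 0.11 (SE). Sibling 3 was the lowest embryo for all 3, and without it these values were 0.10, 0.10 and 0.086. The activin receptor gene acvr1b had a fold interval of 0.924 to 1.09.

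**Figure D3:**
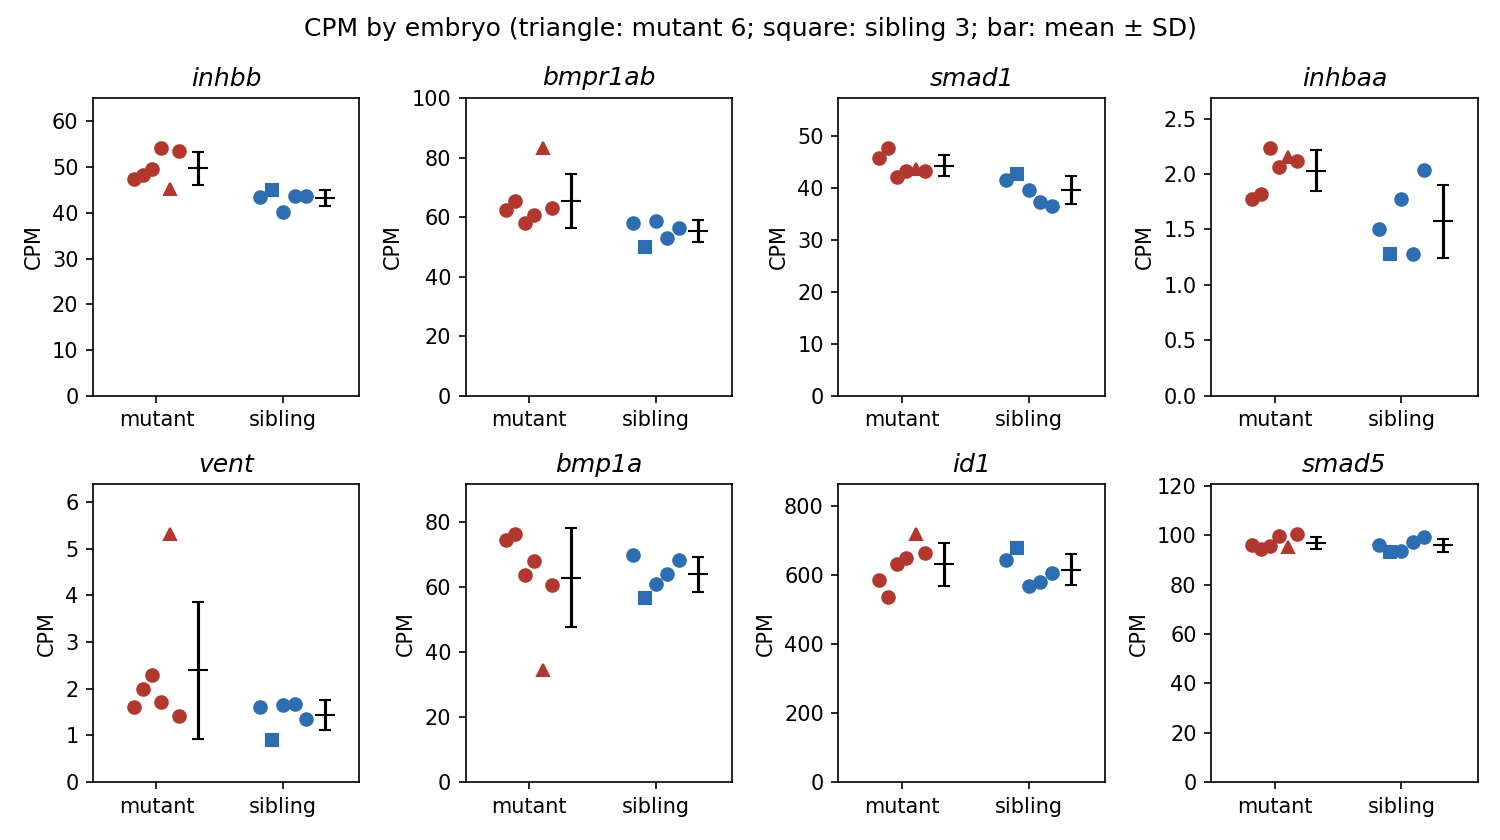
CPM in each embryo for 8 genes, on axes that start at 0, with mutants on the left in red and siblings on the right in blue, mutant 6 as a triangle, sibling 3 as a square and the mean ± SD as a black bar. Mutants lie above siblings for inhbb without overlap, mutant 6 stands apart for bmpr1ab, vent and bmp1a, and the smad5 values of both groups lie close together.

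The Smads held some of the steadiest transcripts of the pathway. Coefficients of variation for smad5, which encodes a receptor Smad of the Bmp branch, were 2.62% in the mutants and 2.74% in the siblings. Values ran from 94.5 to 101 CPM in the mutants, with a median of 95.8 CPM, and siblings 2, 3, 4, 7 and 8 were at 96.1, 93.1, 93.8, 97.5 and 99.4 CPM. The groups overlapped over most of their range, and the fold interval was 0.945 to 1.08. A second Smad of the Bmp branch, smad1, was the one with an unadjusted p under 0.05. Transcripts of smad1 ran from 42.1 to 47.7 CPM in the mutants, with a median of 43.4 CPM, and siblings 2, 3, 4, 7 and 8 were at 41.5, 42.7, 39.6, 37.2 and 36.5 CPM. The overlap came from mutant 4, at 42.07 CPM, and sibling 3, at 42.69 CPM. Its log2 fold change was 0.16 ± 0.060 (SE, edgeR adjusted p = 0.671), or 1.12-fold with an interval of 1.02 to 1.23. Its unadjusted p passed 0.05 without sibling 7 and without sibling 8. The TPM ratio of smad5 to smad1 was 1.2 ± 0.0743 in the mutants and 1.34 ± 0.122 in the siblings, and the groups overlapped. For smad9 the fold interval was 0.862 to 1.26.

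Smads of the Tgf-beta and activin branch had fold intervals of 0.905 to 1.1 for smad2, 0.891 to 1.19 for smad3a and 0.78 to 1.1 for smad3b. For smad3b, values ran from 10.6 to 16.3 CPM in the mutants, with a median of 12.4 CPM, and siblings 2, 3, 4, 7 and 8 were at 15.9, 14.9, 13.7, 12.8 and 14.6 CPM. The siblings lay inside the mutant range, and 4 of the 6 mutants lay below every sibling. The inhibitory Smads, which the pathway induces and which feed back on it, were at 30.3 ± 1.68 TPM in the mutants, against 30.3 ± 1.17 TPM in the siblings for smad6a. For smad7 the level was 11.6 ± 1.38 TPM in the mutants, against 12 ± 1.96 TPM in the siblings. Fold intervals were 0.898 to 1.06 for smad6a and 0.792 to 1.12 for smad7.

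Secreted antagonists and their proteases act on ligand outside the cell. The noggin genes and the chordin gene chd encode proteins that bind Bmps. The tolloid-type proteases encoded by bmp1a, bmp1b and tll1 cleave chordin or procollagens, and despite their symbols bmp1a and bmp1b encode no ligand. For nog2, values ran from 12.2 to 17.8 CPM in the mutants, with a median of 14.2 CPM, and siblings 2, 3, 4, 7 and 8 were at 11.3, 14.5, 13.2, 11.9 and 11.7 CPM. Mutant 6 was the highest embryo, and the other mutants overlapped the siblings, with a fitted log2 difference of 0.19 ± 0.11 (SE, edgeR adjusted p = 0.769). Fold intervals were 0.916 to 1.28 for nog1 and 0.855 to 1.29 for chd, which was at 1.8 ± 0.281 TPM in the mutants, against 1.68 ± 0.293 TPM in the siblings. For tll1, values ran from 11.8 to 19.1 CPM in the mutants, with a median of 15.5 CPM, and siblings 2, 3, 4, 7 and 8 were at 13.4, 7.41, 14.5, 12.1 and 13.6 CPM. Sibling 3 was far below the other siblings, and the log2 fold change was 0.35 ± 0.18 (SE, edgeR adjusted p = 0.745) over all embryos and 0.21 without it.

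The protease gene bmp1a was the most abundant of this family, at 29.3 ± 7.47 TPM in the mutants, against 29.2 ± 3.13 TPM in the siblings. Values ran from 34.4 to 76.5 CPM in the mutants, with a median of 65.9 CPM, and siblings 2, 3, 4, 7 and 8 were at 69.9, 56.7, 61.1, 64.1 and 68.4 CPM. Mutant 6 was the lowest embryo, and the other mutants, at 60.8 to 76.5 CPM, overlapped the siblings. The log2 fold change was −0.023 ± 0.16 (SE) and was 0.10 without mutant 6. For its paralog bmp1b, mutant 1 was the lowest embryo at 5 CPM and sibling 3 the highest at 12.7 CPM. The TPM ratio of bmp1a to bmp1b ran from 3.98 to 17.5 among the mutants, where mutant 6 was lowest and mutant 1 highest, and from 5.26 to 10.7 among the siblings.

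Id genes encode helix-loop-helix proteins without a DNA-binding region, and id1 and id3 are widely used as readouts of Bmp signalling. Of the 5 genes, 0 had an unadjusted p under 0.05, against 6.85% of all tested genes, so a count of 0 is close to that share. Every fold interval lay within 1.5-fold, as for 78.3% of all tested genes. The most abundant was id1, at 972 ± 93.1 TPM in the mutants, against 929 ± 76.9 TPM in the siblings. It held 79.2 ± 1.33% of the summed TPM of the Id genes in the mutants and 79.1 ± 1.38% in the siblings. Transcripts of id1 ran from 537 to 718 CPM in the mutants, with a median of 638 CPM, and siblings 2, 3, 4, 7 and 8 were at 642, 678, 567, 580.1 and 606 CPM. The lowest and the highest embryo were both mutants, mutant 3 and mutant 6. The fold interval of id1 was 0.911 to 1.15, that of id3 was 0.946 to 1.13 and that of id2a was 0.877 to 1.09. The largest fitted values in either direction belonged to the low-abundance members. For id2b, values ran from 5.72 to 6.3 CPM in the mutants, with a median of 5.92 CPM, and siblings 2, 3, 4, 7 and 8 were at 4.83, 7.18, 4.61, 5.34 and 5.44 CPM. The mutants lay inside the sibling range, with a fitted log2 difference of 0.13 ± 0.12 (SE, edgeR adjusted p = 0.866). For id4, values ran from 8.67 to 11.7 CPM in the mutants, with a median of 10.3 CPM, and siblings 2, 3, 4, 7 and 8 were at 12.5, 12.3, 9.51, 9.57 and 11.5 CPM. The groups overlapped, with a fitted log2 difference of −0.10 ± 0.11 (SE, edgeR adjusted p = 0.884).

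The homeobox repressors vent, vox and ved act downstream of Bmps in the ventral gastrula of zebrafish, and all 3 were still detected at 25 hpf. The level of vox was 15 ± 2.49 TPM in the mutants, against 15.1 ± 1.77 TPM in the siblings. For ved it was 7.62 ± 0.925 TPM in the mutants, against 6.89 ± 0.769 TPM in the siblings. For vent it was 2.83 ± 1.76 TPM in the mutants, against 1.67 ± 0.385 TPM in the siblings. The fitted value of vent was the largest of the 58 genes and came mainly from 1 embryo. Values ran from 1.41 to 5.32 CPM in the mutants, with a median of 1.85 CPM, and siblings 2, 3, 4, 7 and 8 were at 1.61, 0.897, 1.65, 1.67 and 1.36 CPM. Mutant 6 had 89 counts and stood far above the other mutants, at 1.41 to 2.3 CPM, which overlapped the siblings. Of these, mutants 3, 4 and 5, at 1.98, 2.3 and 1.71 CPM, lay above every sibling, and mutants 1 and 7 lay among the siblings. The log2 fold change was 0.73 ± 0.34 (SE, edgeR adjusted p = 0.736). It was 0.33 without mutant 6 and 0.19 without both mutant 6 and sibling 3, the lowest sibling. For vox, values ran from 7.23 to 10.5 CPM in the mutants, with a median of 9.58 CPM, and siblings 2, 3, 4, 7 and 8 were at 9.83, 7.79, 8.98, 10.7 and 9.69 CPM. Both groups shared most of this range, with a fitted log2 difference of −0.046 ± 0.13 (SE). For ved, values ran from 4.29 to 5.56 CPM in the mutants, with a median of 5.09 CPM, and siblings 2, 3, 4, 7 and 8 were at 4.56, 4.49, 3.96, 5.56 and 4.76 CPM. The groups overlapped here too, at 0.11 ± 0.12 (SE), and myo18b overlaps ved in the annotation. No protein-coding gene lies between vent and vox there, and the TPM ratio of vox to vent was 2.68 in mutant 6, 5.66 to 8.6 in the other mutants and 7.54 to 12.1 in the siblings.

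**Figure D4:**
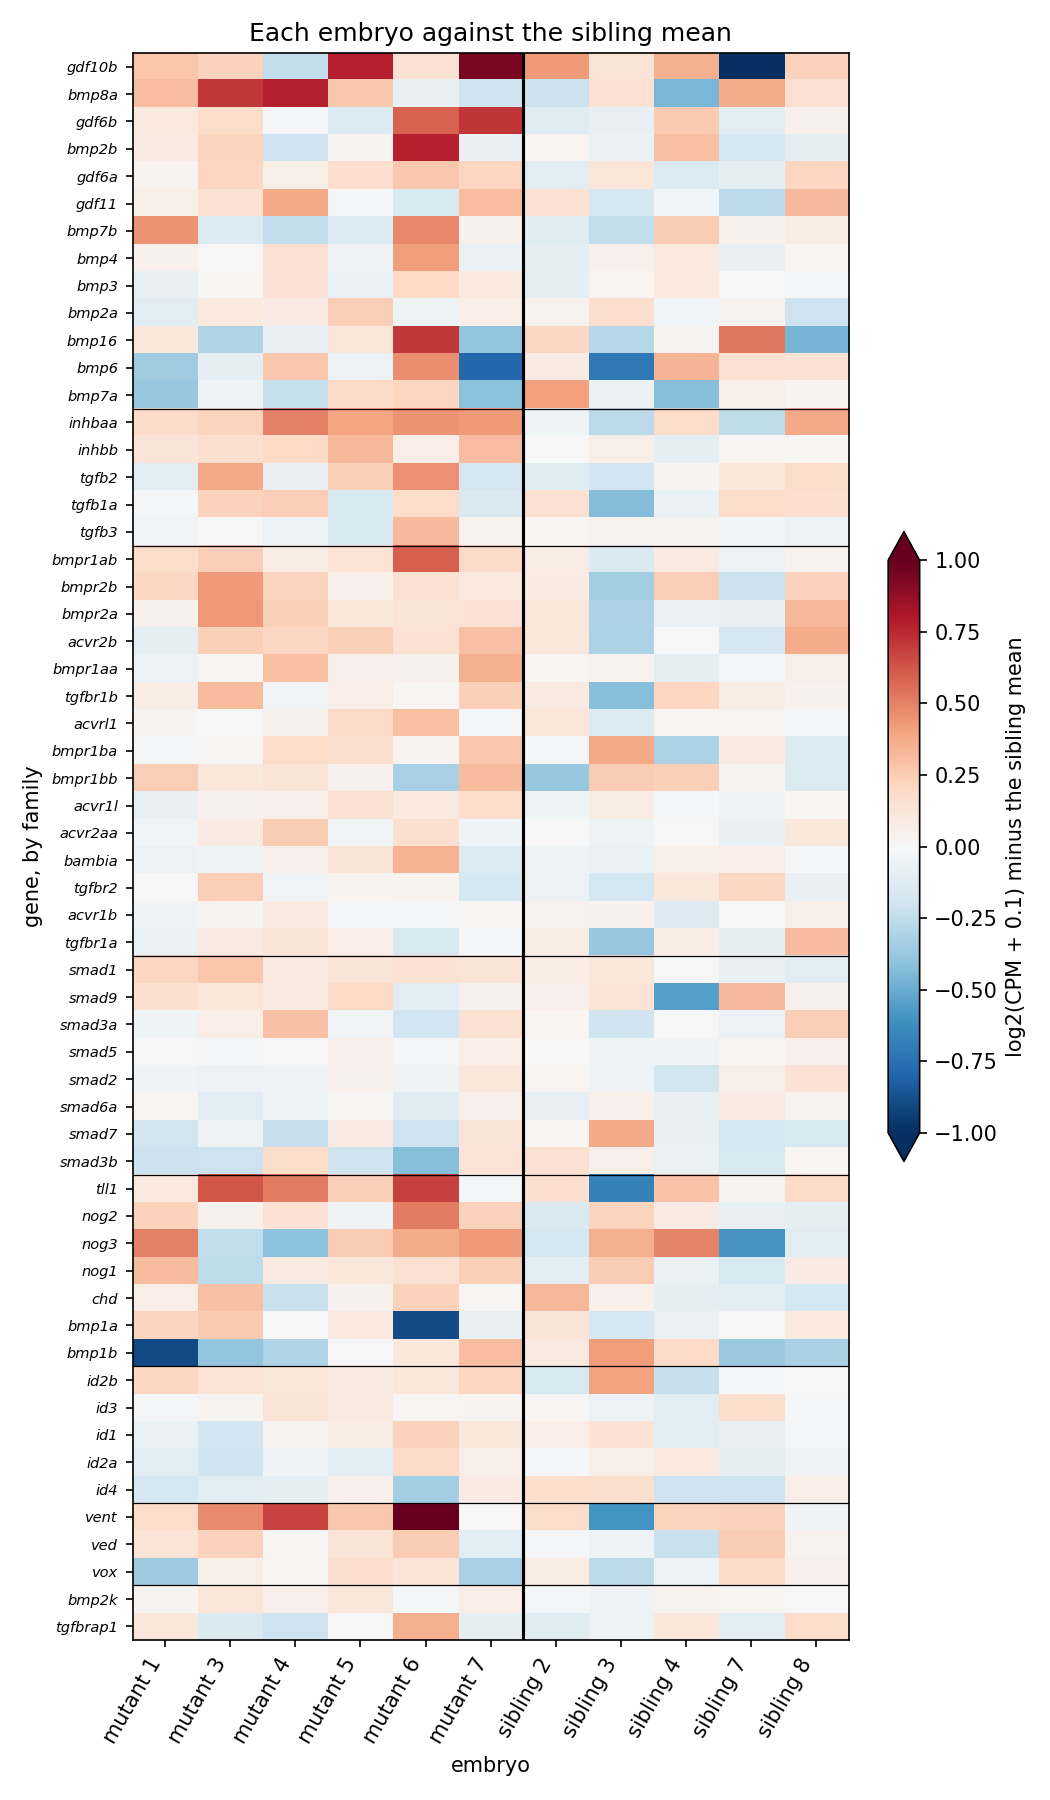
Log2(CPM + 0.1) of the 58 tested genes in each embryo minus the mean of the siblings, with mutants left of the black line and siblings right of it, genes grouped by family and colours ending at 1 and −1. Mutant 6 shows dark red for vent, bmp2b and bmp16 and dark blue for bmp1a, and sibling 3 shows dark blue for bmp6 and tll1. Other embryos depart as far for some genes. Sibling 7 is dark blue for gdf10b, mutant 1 for bmp1b and mutant 7 for bmp6, and mutant 7 is dark red for gdf10b.

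Single embryos often stood at the ends of the range. Mutant 6 was the highest or the lowest of the 11 embryos for 22 of the 58 genes (37.9%, against 34.5% of all tested genes), 18 times the highest and 4 times the lowest. Sibling 3 was at an end for 20 of the 58 genes (34.5%, against 26.1% of all tested genes), 4 times the highest and 16 times the lowest. The highest embryo was a mutant for 43 of the 58 genes (74.1%, against 58.7% of all tested genes), and the lowest was a sibling for 39 (67.2%, against 42.1%). Without mutant 6 and sibling 3, a choice made after the values were seen, the median log2 fold change of the 58 genes was 0.043. In that fit, 40 of the 58 had a log2 fold change above 0. The median and the share above 0 over all tested genes are not given for that fit. Whether the lean is particular to these genes there cannot be read from these values. At an unadjusted p under 0.05 were 5 of the 58 (8.62%), below the share of 9.19% of all tested genes.

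The symbol rule also took in bmp2k, which encodes an endocytic kinase, and tgfbrap1, which encodes a vesicle-tethering protein that binds Tgf-beta receptors. Their fold intervals were 0.973 to 1.12 for bmp2k and 0.85 to 1.2 for tgfbrap1. Too low to be tested were bmp10, bmp15, gdf9, gdf2, inhbab and nog5, with at most 9, 8, 10, 1, 17 and 1 counts in any embryo. In mammals, BMP15 and GDF9 are oocyte factors, and BMP10 and GDF2 are ligands of the endothelial receptor that acvrl1 encodes.

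Other pathway genes, from a list of 83 of which 64 were in the table and 54 were tested, were also described. Beside pathway components, this list holds transcription factor and tissue genes such as krt4, tp63, tfap2a, dlx3b, tbx5a and hey1. Its counts and median are therefore not those of pathway components alone. The edgeR test called 0 of the 54, and 0% of all tested genes. With edgeR, 4 (7.41%) had an unadjusted p under 0.05, against 6.85% of all tested genes. Of the 4, 3 were higher and 1 was lower in the mutants. Over all tested genes, 3.79% were higher and 3.06% lower at that threshold. DESeq2 called 0 of the 53 that it gave a p for. It had 4 at an unadjusted p under 0.05 (7.55%), against 6.44% of all genes it tested. With limma-voom and sample weights, 0 were called, against 32 of all 12301 tested genes. There, 10 of the 54 (18.5%) had an unadjusted p under 0.05, against 10.8% of all tested genes. In that same fit, 3 of the 58 genes chosen by symbol or name (5.17%) were under that threshold. The median log2 fold change of the 54 was 0.068. The Nodal inhibitor gene lft1 was at 2.75 ± 0.652 CPM in the mutants, against 1.64 ± 0.625 CPM in the siblings, a difference of 0.73 ± 0.25 on the log2 scale (SE, edgeR adjusted p = 0.634). Transcripts of foxh1, which encodes a partner of Smad2 in Nodal signalling, were at 2.36 ± 0.334 CPM in the mutants, against 1.56 ± 0.507 CPM in the siblings, a difference of 0.59 ± 0.20 (SE, edgeR adjusted p = 0.634). Both genes had at most 69 counts in any embryo. The Nodal ligand genes ndr1, ndr2 and spaw had at most 4, 5 and 13 counts and were not tested. The Notch target gene hey1 was at 72.5 ± 10.02 CPM in the mutants, against 61.5 ± 6.17 CPM in the siblings, a difference of 0.24 ± 0.10 (SE, edgeR adjusted p = 0.711). The gene zeb2a, for a Smad-interacting repressor, was at 225 ± 14.8 CPM in the mutants, against 249.9 ± 13 CPM in the siblings, a difference of −0.15 ± 0.059 (SE, edgeR adjusted p = 0.677). The gene fsta, for follistatin, an activin and Bmp antagonist, is named because of its values. It was at 336 CPM in mutant 6, 45 to 50.8 CPM in the other mutants and 38.5 to 65 CPM in the siblings, and its log2 fold change was 1.02 ± 0.54 (SE) with mutant 6 and 0.028 without it.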

How the data were processed

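Embryos were grouped by sample title, and libraries were made with the TruSeq kit v2, according to the labels' protocols. The authors deposited estimated counts, taken as rounded because they are whole numbers, and TPM values. The submitters' processing notes name Bowtie 1.1.1, RSEM 1.2.18, CASAVA 1.8.2 and build Zv9 without roles; the gene annotation is not given in the sources used here. Reads of near-identical paralogs may be divided unevenly. The comparison used edgeR 4.0.16 in R 4.3.3 (quasi-likelihood test, TMM, filterByExpr, Benjamini-Hochberg adjustment), with SE and 95% intervals from its F statistic. It was also run on simulated data, where the pass condition was recovery of changes larger than any reported above for these genes. Passing it says nothing about differences as small as these. DESeq2 1.42.0, limma 3.58.1 (voom, and log2 TPM with pseudocounts of 1 and 0.1), other scalings, filters and thresholds, a replicate block and leaving out each embryo were alternatives. Over 25 within-group library pairs, chi-square per degree of freedom was at least 7.79, above sampling noise. Nothing says that embryos came from separate clutches, so p-values measure the spread between these embryos. Symbols were matched to the GRCz12tu gene table (60 directly, 4 as synonyms). There the spans of 19 of the 64 genes, introns included, overlap another gene, and overlap of exons was not examined. Not all of these overlaps are named above. Figures were drawn with matplotlib 3.10.9.

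Genes and lists were chosen with earlier results of these data known. The fullest values were given for the most abundant gene and the 2 genes of lowest p in each family (bmp2k and tgfbrap1 form no family), and for genes without overlap, at an unadjusted p under 0.05 or called by any test. For these, siblings were listed by embryo and mutants by range and median, with some mutants named singly. From the other pathway genes, those at an unadjusted p under 0.05 were named. Single genes outside this rule were named after their values were seen.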

Additional observations from a re-analysis of the deposited data

Results flagged for a closer look

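Dixon's criterion was applied to the 58 tested genes in each group, 116 sets of values, and set 7 single values apart from their group, where chance gives about 1 set in 20, or 5.8. Of the 7, 6 came from mutant 6. It was high for vent (5.32 CPM, other mutants 1.41 to 2.3), bmp2b (20.6 CPM, others 10.4 to 14), bmpr1ab (83.3 CPM, others 58 to 65.4), tgfb3 (67.4 CPM, others 48.3 to 55.1) and bmp16 (5.38 CPM, others 2.44 to 3.54). It was low for bmp1a (34.4 CPM, others 60.8 to 76.5). Sibling 7 was low for gdf10b (0.334 CPM, other siblings 0.945 to 1.18). Of the other pathway genes named, mutant 7 was high for zeb2a (253 CPM, other mutants 211 to 226). The gene fsta was named because mutant 6 stood apart, at 336 CPM against 45 to 50.8 CPM in the other mutants, so its departure adds nothing to the tally. Mutant 6 also differed from all other mutants in marker sums, with roof plate at 186 CPM (others 117 to 143), floor plate at 206 CPM (others 117 to 156), blood and endothelium at 378 CPM (others 719 to 1270) and proliferation at 4119 CPM (others 4606 to 5359). By smaller margins, so did neural progenitor at 863 CPM (others 870 to 1095), neuron at 731 CPM (others 755 to 951) and heart at 252 CPM (others 176 to 236). The heart and floor plate sums of mutant 6 lay within the sibling ranges of 209 to 286 CPM and 181 to 206 CPM. The part of these marker sums in the departures was not tested.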

How the results depend on the processing

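None of the 58 genes was called under the 27 alternatives, and their lowest adjusted p was 0.101, with DESeq2 without mutant 6. Over all genes edgeR called 0, with 843 at an unadjusted p under 0.05. DESeq2 called 43, limma-voom 2, voom with sample weights 32 and edgeR at a threshold of 0.1 called 2. Leaving out each embryo gave 0 to 24 calls, with 24 without mutant 6 and 1 without sibling 7. As alternatives added after the values were seen, DESeq2 without mutant 6 called 79 and edgeR without mutant 6 and sibling 3 called 25. Leaving out each embryo put 2 to 6 of the 58 genes at an unadjusted p under 0.05 (3.45% to 10.3%), with 2 without sibling 7, while the share of all tested genes ran from 5.61% to 7.9%. Same-numbered embryos did not deviate together (correlations of −0.31, −0.19 and −0.14 for numbers 3, 4 and 7), so the numbers were not taken as pairs. With the replicate block over these 6 embryos, 0 genes were called and 4 of the 58 (6.90%) had an unadjusted p under 0.05, against 2.32% of all tested genes. These were acvr2b, bmpr2a, gdf11 and smad3a, and inhbb, bmpr1ab, smad1 and inhbaa were not among them. Of 525 log2 fold changes for 21 named genes, 501 kept their sign. Under the replicate block, bambia (−0.064), bmp1a (0.14), id4 (0.044), smad3b (0.096) and tgfb3 (−0.019) changed sign. So did bmp1a (0.014) and tgfb3 (−0.035) with sample weights and bmp1a (0.0061) with total counts. In DESeq2 without mutant 6, bambia was at −0.0096, bmp1a at 0.10, id1 at −0.0056 and tgfb3 at −0.040. Without mutant 6 and sibling 3, bambia was at −0.026, bmp1a at 0.061 and tgfb3 at −0.032. Leaving out each embryo gave −0.010 to 0.097 for bambia, −0.079 to 0.10 for bmp1a, −0.0059 to 0.083 for id1, −0.041 to 0.064 for tgfb3 and −0.11 to 0.014 for vox. The cause of these changes was not tested. The intervals of vent, gdf10b, nog3 and bmp8a were the widest of the 58 genes, and these 4 had at most 89 counts in any embryo.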
